A study of Sus scrofa with 26 samples.

Results

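The nuclear-encoded subunits of respiratory complexes II, III, IV and V were followed in the subcutaneous adipose tissue (SCAT) of pigs kept at thermoneutrality (TN) or under heat stress (HS). A probe was taken as a member when the gene name printed in the scanner files was SDHA, SDHB, SDHC, SDHD or CYC1, or started with UQCR, COX4I, COX5, COX6, COX7, COX8 or ATP5. This rule uses names and no measured value. It found 42 gene names, of the 9623 that were tested, read by 145 of the 60305 probes of the array: 3 for complex II (24 probes), 9 for complex III (20 probes), 14 for complex IV (42 probes) and 16 for complex V (59 probes). No probe was named SDHC, COX6A2, COX6B2 or COX8A. COX6B is an older name of COX6B1, and the array uses both names. ATP5SL was taken for its name, although its protein is not a subunit of the ATP synthase.

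Back fat was taken from 26 castrated male pigs, 1 pig per array. They belonged to 3 breeds, the Creole, the Large White (LW) and F1, the cross of both. The TN groups (24 °C) held 3 pigs of Creole, 4 of F1 and 4 of LW. The HS groups held 5 pigs each, which makes 11 TN against 15 HS arrays. HS is labelled 30 °C in the sample records and described as 5 days at 32 °C in the text of the series, a discrepancy that touches no value below. Because the TN pigs were killed before the temperature was raised, temperature cannot be told apart from slaughter day or from age, which the labels do not give. The study also reported a lower feed intake under HS, and temperature cannot be told apart from it either. Each array is a separate pig, and the errors below are spreads between pigs. The pigs are not all independent, however. Per the methods of the study, they came in groups of littermates and shared pens, and each pen was killed at 1 temperature. Litter and pen are not in the labels and were not fitted, so that the errors and p-values below may be too small.

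The respiratory chain passes electrons from NADH and succinate to oxygen and pumps protons across the inner mitochondrial membrane, and complex V, the ATP synthase, uses the return of these protons to make ATP. Complex II is succinate dehydrogenase, which is also an enzyme of the TCA cycle and is made of nuclear subunits alone. Complex III passes electrons from ubiquinol to cytochrome c, complex IV (cytochrome c oxidase) passes them from cytochrome c to oxygen, and both complexes, like complex V, combine nuclear subunits with others encoded by the mitochondrial genome. White adipocytes hold few mitochondria beside their lipid store, and several subunits of complex IV exist as isoforms made mainly in muscle or in other tissues.

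Of the 145 probes, 144 were tested and 142 were well above background on all 26 arrays. A COX7C probe was the one that was not tested. Between 41314 and 46185 probes were well above background per array, and no spot was saturated. The sample label was checked with 10 adipocyte markers, and all 10 were well above background on all 26 arrays. The array has no probe named UCP1, the defining gene of brown adipocytes. Levels are log2 intensities after quantile normalization, and 1 array, replicate 5 of Creole HS, stood apart within its group for the members as a whole (below).

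The probes are oligonucleotides of 60 bases, and their sequences show what was hybridised for each gene. The GC content of the members' probes had a median of 41.7% (range 35.0 to 55.0), and the median over all probes of the array was also 41.7%. A run of at least 20 bases was shared with another probe of the same gene by 71 of the 145 probes, so that probes of a gene are not independent measurements. The probes below, chosen after their values were seen, stand for genes on which the results turn. Capitals mark the run shared with the other printed probe of the same gene, which is 44 bases for SDHA. For COX5B, 56 bases of the first probe match the reverse complement of the second, so that the probes read opposite strands.

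SDHA probe A_72_P602068: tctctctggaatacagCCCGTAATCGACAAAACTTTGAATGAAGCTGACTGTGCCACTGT
SDHA probe A_72_P380073: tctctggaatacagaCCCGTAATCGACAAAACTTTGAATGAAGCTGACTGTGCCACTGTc
SDHB probe A_72_P178116: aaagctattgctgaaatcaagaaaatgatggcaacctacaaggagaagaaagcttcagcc
UQCRC1 probe O4764: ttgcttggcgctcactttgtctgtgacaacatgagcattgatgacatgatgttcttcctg
COX5B probe A_72_P760099: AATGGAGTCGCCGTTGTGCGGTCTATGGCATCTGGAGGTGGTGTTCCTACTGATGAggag
COX5B probe O12003: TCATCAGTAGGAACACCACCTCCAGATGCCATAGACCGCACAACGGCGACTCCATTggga
COX7A1 probe O11686: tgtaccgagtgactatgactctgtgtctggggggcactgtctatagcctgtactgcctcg
ATP5B probe A_72_P577158: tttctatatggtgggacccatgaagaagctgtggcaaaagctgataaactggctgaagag

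Some of these sequences are shared across names. In all, 17 member probes shared such a run with a probe of another name, mostly an unnamed locus or contig. The brightest SDHA probe shared all 60 bases with a probe named SDHAP3, a pseudogene name, and the COX7B probe shared 57 bases with a probe named LOC100516480. The printed UQCRC1 probe, O4764, shared all 60 bases with a probe named LOC100156879. The brightest UQCRC1 probe shared 43 bases with another probe of that name. The signals of near-identical loci cannot be separated by such probes. The probe named SDHAP3 changed by −0.28 between HS and TN and that of LOC100516480 by −0.25, against −0.25 for SDHA and −0.29 for COX7B. The probes named LOC100156879 changed by −0.42 and −0.38, against −0.42 for O4764 and −0.37 for the brightest UQCRC1 probe.

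Under HS, 15 of the 42 member genes fell and none rose, when each gene was read from its brightest tested probe (limma, adjusted p under 0.05 over all 44703 tested probes). This is 35.7% of the members, whereas 7.68% of the 9623 named genes tested on the array fell and 4.89% rose. The log2 change was below 0 for 36 of the 42 genes. Its median was −0.18, against −0.0054 over all named genes. At the probe level, 79 of 144 tested probes fell (54.9%, against 7.02% of all tested probes), with a median change of −0.23. In bulk tissue, less RNA per cell and fewer cells that carry it cannot be told apart. Before adjustment, 27 of the 42 genes had a p under 0.05. Taking the scanner's processed signals scaled to each array's 75th percentile, in place of quantile-normalized median pixel intensity, changed both the signal and the scaling and gave 25 genes lower and none higher (against 10.7% and 3.99% of all named genes), and a fit without the breed term gave 7 lower.

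**Figure D1:**
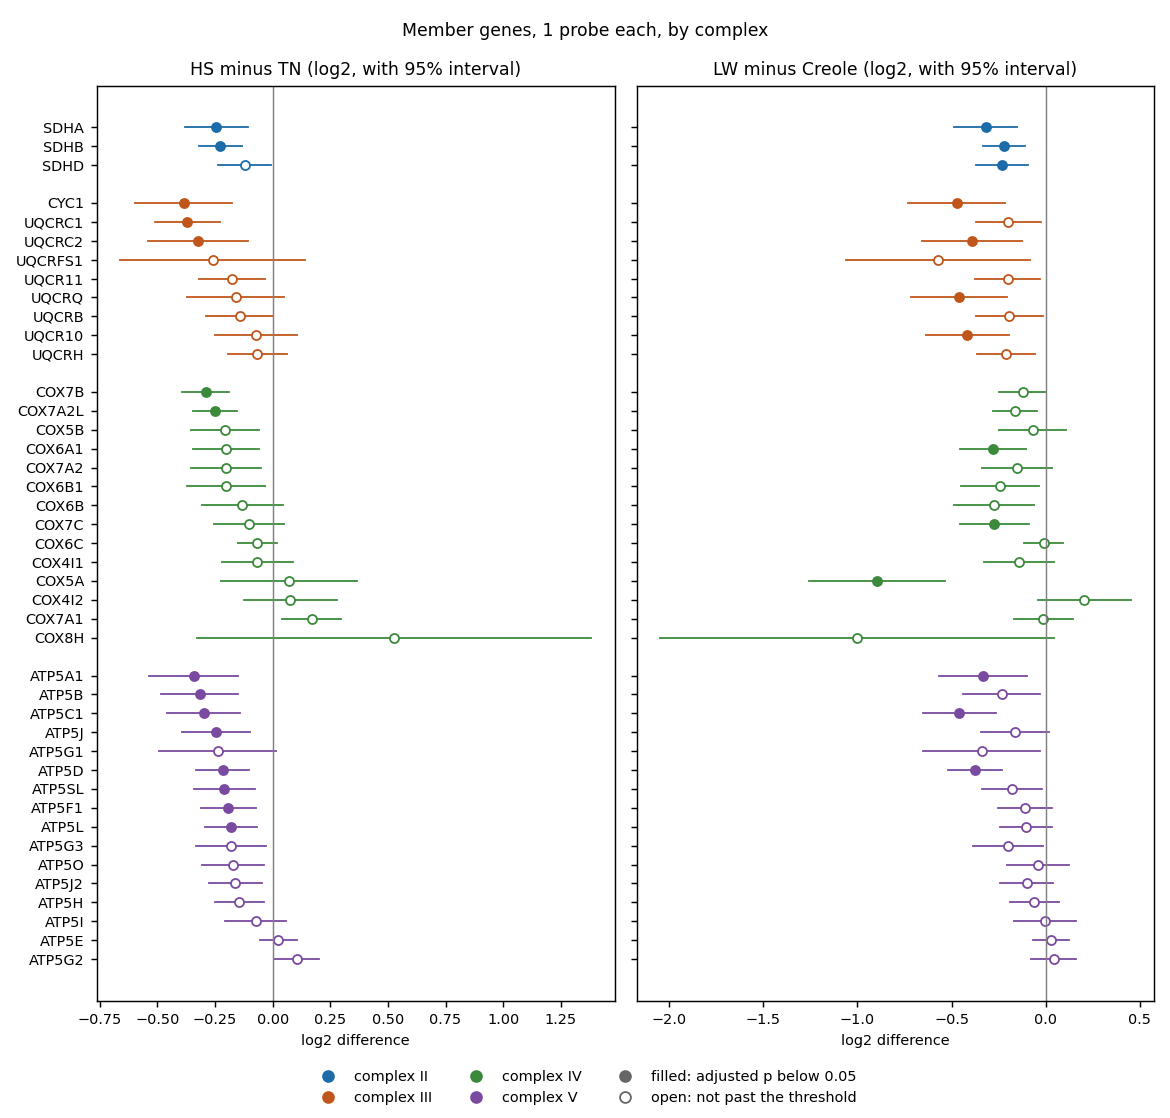
Each row is a member gene and each point its log2 difference with the 95% confidence interval, HS minus TN on the left and LW minus Creole on the right; filled points passed the threshold (adjusted p under 0.05). All filled points lie below 0, 15 on the left and 13 on the right, while COX8H has the widest interval in both panels.

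In complex II, 2 of the 3 genes fell, with a median log2 change of −0.23. SDHB, the iron-sulfur subunit that hands electrons on towards ubiquinone, had a log2 level of 13.85 to 14.19 on the TN arrays (median 14.02) and of 13.58 to 14.07 on the HS arrays (median 13.82). Its change was −0.23 (SE 0.0452, 95% CI −0.32 to −0.13, limma adjusted p = 0.00206), so that the intensity fell by 14.5%. The ranges overlap, but 14 of 15 HS arrays were below the TN mean of their breed. SDHA, the flavoprotein that oxidises succinate, was at 16.53 to 17.02 in TN (median 16.79) and at 16.26 to 17.04 in HS (median 16.43), a change of −0.25 (SE 0.0665, 95% CI −0.38 to −0.11, limma adjusted p = 0.0169). The highest SDHA level of all 26 arrays was on an HS array of F1. The other probes of both genes went the same way: 5 of 5 further SDHA probes and 8 of 8 further SDHB probes fell, among them the SDHA pair printed above (−0.42 and −0.36) and the printed SDHB probe (−0.24). SDHD, a membrane anchor of the complex, changed by −0.12 (limma adjusted p = 0.156), and 2 of its 8 further probes fell.

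In complex III, 3 of the 9 genes fell, and all 9 changes were below 0 (median −0.18). UQCRC1, a core protein of the matrix side, ranged from 14.88 to 15.21 in TN (median 15.11) and from 14.36 to 15.19 in HS (median 14.66). It changed by −0.37 (SE 0.0686, 95% CI −0.51 to −0.23, limma adjusted p = 0.00120), was lower in 14 of 15 HS arrays and fell by 22.6% in intensity. CYC1, cytochrome c1, which carries a heme and donates electrons to cytochrome c, was at 14.11 to 14.75 in TN (median 14.43) and at 13.53 to 14.75 in HS (median 13.95). Its change of −0.39 (SE 0.103, 95% CI −0.60 to −0.17, limma adjusted p = 0.0153) was the largest fall among the members past the threshold, with 13 of 15 HS arrays lower. UQCRC2, the other core protein, changed by −0.32 (limma adjusted p = 0.0433). This call was near the threshold: it was lost without a filter on dim probes (adjusted p = 0.0570) and when 19 of the 26 arrays were left out in turn, the exceptions being F1 HS replicate 1, LW HS replicates 1 and 5, F1 TN replicate 3, Creole HS replicates 3 and 4 and LW TN replicate 4. The other genes did not pass the threshold. UQCRFS1, the Rieske iron-sulfur protein, changed by −0.26 (adjusted p = 0.417), and the small subunits UQCR11, UQCRQ, UQCRB, UQCR10 and UQCRH changed by −0.18 to −0.07.

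In complex IV 2 of 14 genes passed the threshold, with a median change of −0.12. Read by probe, 15 of its 41 probes fell (36.6%), against 5 of 20 in complex III (25.0%). The difference between the complexes was not tested. COX7B, a small subunit of the membrane part, was at 14.26 to 14.58 in TN (median 14.41) and at 13.95 to 14.39 in HS (median 14.10). It changed by −0.29 (SE 0.0495, 95% CI −0.39 to −0.19, limma adjusted p = 0.000684), the smallest p among all members, and 14 of 15 HS arrays were lower. COX7A2L, which helps to join complexes III and IV in supercomplexes, was at 12.44 to 12.70 in TN (median 12.55) and at 12.08 to 12.57 in HS (median 12.32). Its change was −0.25 (SE 0.0463, 95% CI −0.35 to −0.16, limma adjusted p = 0.00114), and all 15 HS arrays were below the TN mean of their breed. COX6A1 (−0.20, adjusted p = 0.0539), COX5B (−0.21, adjusted p = 0.0552) and COX7A2 (−0.20, adjusted p = 0.0725) were just outside the threshold. For COX6A1, 5 of 7 further probes fell, and for COX7A2 all 5 did. The COX5B probes that read opposite strands changed by −0.20 (first printed probe, mean level 14.39, adjusted p = 0.111) and −0.32 (second, mean level 10.91, adjusted p = 0.0175). Of such a pair, 1 probe does not read the COX5B mRNA, and which one was not tested. The second, the dimmest COX5B probe, is the only one past the threshold and is counted in the 15 probes above. The remaining values were −0.20 for COX6B1, −0.13 for COX6B, −0.10 for COX7C and −0.07 for both COX6C and COX4I1, none of them past the threshold.

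The isoforms of complex IV did not all follow this direction. COX7A1, the isoform of muscle and of brown adipocytes, was at 14.29 to 14.73 in TN (median 14.49) and at 14.40 to 14.98 in HS (median 14.69), a change of 0.17 (95% CI 0.04 to 0.30, limma adjusted p = 0.0758). It was higher in 13 of 15 HS arrays, and it passed the threshold when replicate 3 of F1 HS or replicate 3 of Creole HS was left out. With processed signals scaled to the 75th percentile its change was 0.03 (adjusted p = 0.827). Its counterpart in most other tissues, COX7A2, had the value of −0.20 given above. COX4I2, the isoform known from lung, changed by 0.08 (adjusted p = 0.666), and COX4I1, which most tissues make, by −0.07 (adjusted p = 0.611). COX8H, the heart and muscle isoform of subunit VIII, changed by 0.53 with an interval of −0.33 to 1.38 (adjusted p = 0.446). COX5A, with 1 probe, changed by 0.07 (adjusted p = 0.799).

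In complex V, 8 of the 16 genes fell (median change −0.19), and these included 4 of the 5 subunits of the catalytic head. ATP5C1, the γ subunit of the rotor, was at 14.59 to 15.09 in TN (median 14.72) and at 13.91 to 15.00 in HS (median 14.57), a change of −0.30 (SE 0.0765, 95% CI −0.46 to −0.14, limma adjusted p = 0.0117). ATP5B, the catalytic β subunit, was at 15.82 to 16.47 in TN (median 16.19) and at 15.40 to 16.29 in HS (median 15.76), a change of −0.32 (SE 0.0807, 95% CI −0.48 to −0.15, limma adjusted p = 0.0117). Both were lower in 13 of 15 HS arrays. The α subunit ATP5A1 changed by −0.34 (adjusted p = 0.0174) and the δ subunit ATP5D by −0.22 (adjusted p = 0.0133), while the ε subunit ATP5E, the last of the head, changed by 0.02 (adjusted p = 0.738). In the stalk, ATP5F1 (subunit b, −0.19, adjusted p = 0.0294) and ATP5J (a coupling factor, −0.25, adjusted p = 0.0262) fell, and ATP5O (−0.17) and ATP5H (−0.14) did not pass the threshold. ATP5L, a membrane subunit, fell by 0.18 (adjusted p = 0.0315), as did ATP5SL by 0.21 (adjusted p = 0.0323). The calls of ATP5L and ATP5SL were lost when F1 HS replicate 2, LW HS replicate 2, F1 TN replicate 3 or LW TN replicate 2 was left out, that of ATP5L also without Creole TN replicate 2 or LW TN replicate 3, and that of ATP5SL also without F1 TN replicates 1 or 2 or Creole TN replicates 1 or 3. The call of ATP5J was lost without LW TN replicate 2 or 3, and that of ATP5F1 without LW TN replicate 2.

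The c subunit, which forms the proton-driven ring, is encoded by 3 genes that make the same mature protein. Their values differed in sign: ATP5G1 changed by −0.24 (adjusted p = 0.217), ATP5G3 by −0.18 (adjusted p = 0.109) and ATP5G2 by 0.10 (adjusted p = 0.157). ATP5G2 was higher in 14 of 15 HS arrays in the quantile-normalized median intensity, but its change was −0.02 in the processed signals scaled to the 75th percentile. The differences between these 3 genes were not tested.

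**Figure D2:**
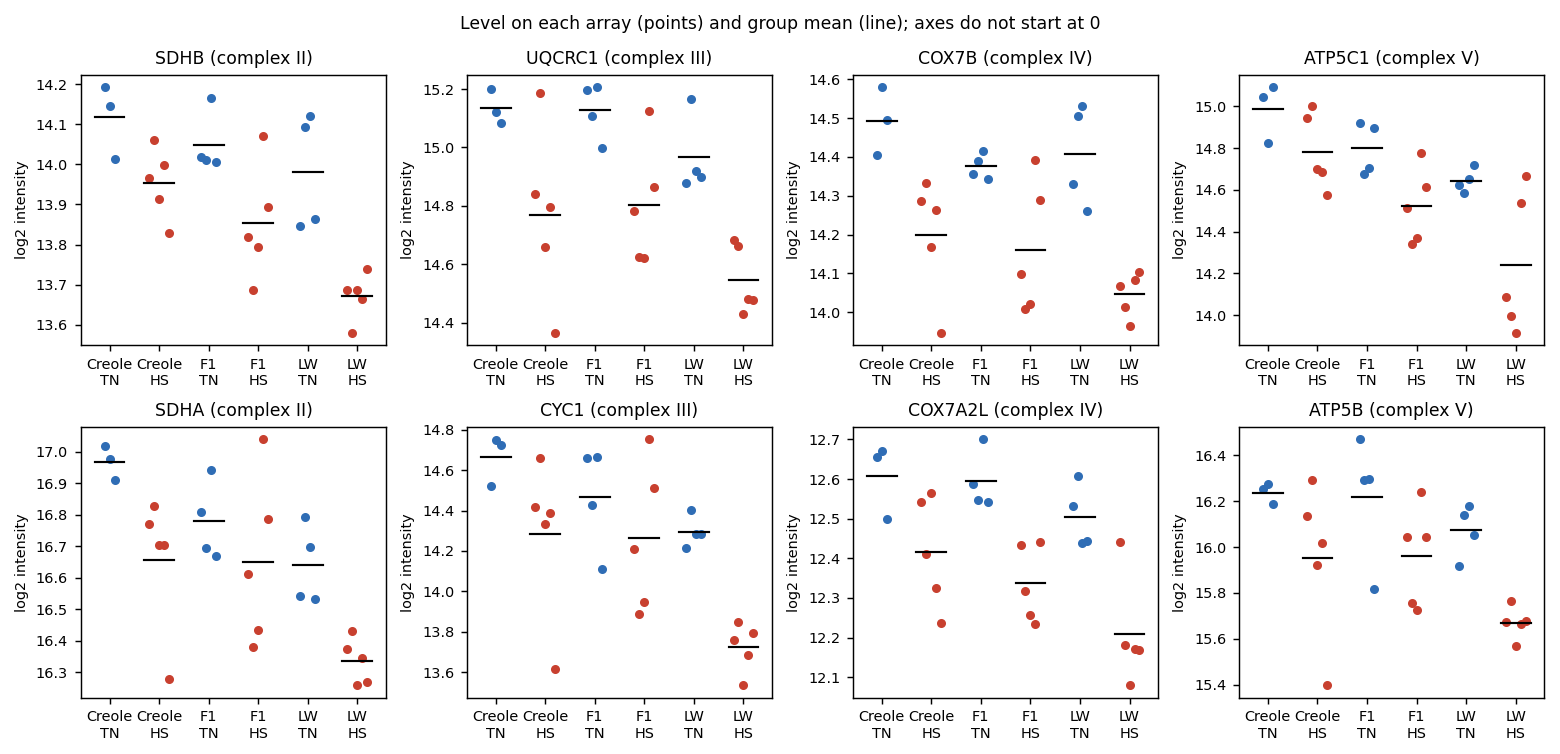
Log2 intensity on each of the 26 arrays, grouped by breed and temperature, for the 2 genes with the smallest p-values of each complex; blue points are TN arrays, red points HS arrays, and the line is the group mean. In all 8 panels the HS mean lies below the TN mean in each breed, and replicate 5 of Creole HS is the lowest Creole array in each panel.

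Most probes of a gene went the same way. Of the 17 member genes with at least 3 tested probes, 13 had a median change of the other probes lower than that of the brightest probe, so that the choice of the brightest probe gave the smaller fall in most of them. All 14 further ATP5A1 probes and all 12 further ATP5F1 probes fell, as did 8 of 9 for ATP5B. None of the 7 further UQCRB probes passed the threshold, although all 7 values were below 0. A further probe of COX6B stood apart at −0.53 (adjusted p = 0.00974), against −0.13 for its brightest probe, so that the probes of this gene disagree in size. The UQCRC1 probe printed above, O4764, which is not the brightest of its gene, changed by −0.42 (adjusted p = 0.00298). All 60 of its bases are shared with a probe named LOC100156879.

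**Figure D3:**
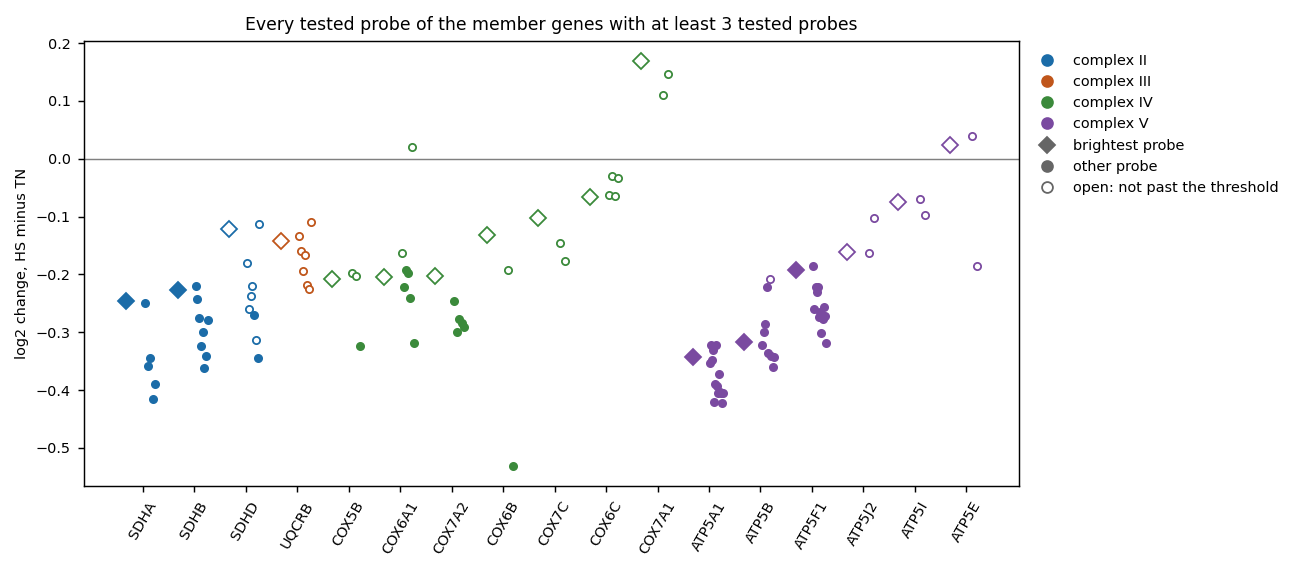
Log2 change, HS minus TN, of every tested probe of the 17 member genes that have at least 3; diamonds are the brightest probe of a gene, circles the others, and filled symbols passed the threshold. Most probes of SDHA, SDHB, ATP5A1, ATP5B and ATP5F1 are filled and below 0, whereas the 3 COX7A1 probes are open and above 0.

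Each array was also given a score per complex, in which each gene's log2 level was centred on its own mean across the 26 arrays and the centred values were averaged, as a description without a test. For complex II the mean score was 0.22 ± 0.06 (SD, n = 3) in Creole TN and 0.03 ± 0.16 (n = 5) in Creole HS. In F1 it was 0.13 ± 0.08 (n = 4) and −0.01 ± 0.20 (n = 5), and in LW 0.00 ± 0.12 (n = 4) and −0.26 ± 0.03 (n = 5). The order of the 6 groups thus ran from Creole TN, the highest, to LW HS, the lowest, in complexes II, III and V, with group means of 0.28 and −0.34 at the ends in complex III and of 0.18 and −0.19 in complex V. In complex IV the ends were again Creole TN at 0.21 ± 0.04 and LW HS at −0.14 ± 0.08, but LW TN was at −0.13 ± 0.18, so that the LW groups overlapped. Over all members, the 5 LW HS arrays lay between −0.26 and −0.15, below all TN arrays, whose lowest was −0.12. Replicate 5 of Creole HS was at −0.33, and the other 4 Creole HS arrays were between 0.06 and 0.18. Without it, 14 of the 42 genes fell between TN and HS, all of them among the 15 above.

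**Figure D4:**
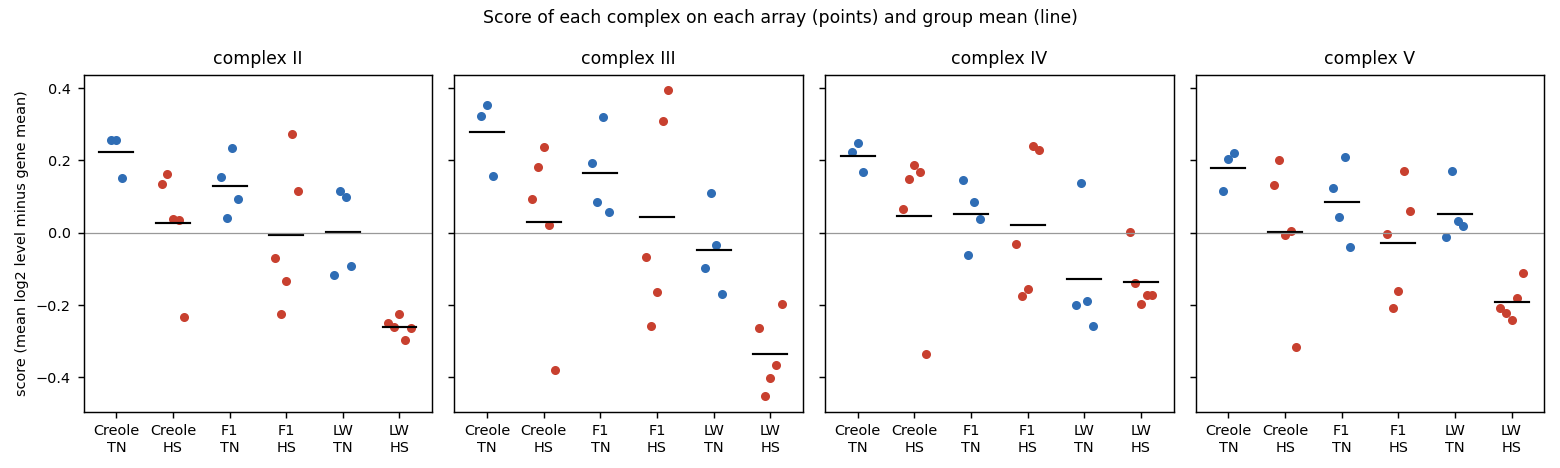
Score of each complex on each array (points) with the group mean (line), in log2 units relative to the mean of each gene over the 26 arrays; blue is TN and red HS. Creole TN has the highest and LW HS the lowest mean in all 4 panels, and 1 Creole HS array lies below −0.2 in each.

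The arrays came from 5 slides, each with pigs of both temperatures, so that the change could be read within slides as a value without a test. The median over the 42 genes was −0.17, −0.21, −0.38, −0.09 and −0.07 on the 5 slides. Complex II and complex V had a median below 0 on each slide. Complex III had medians of 0.01 on slide 4 and 0.11 on slide 5, and complex IV of 0.01 on slide 5. Breeds are not balanced within slides. Of the 15 genes that fell, 13 were lower on all 5 slides, and the exceptions were UQCRC2 (0.11) and ATP5D (0.03) on slide 5. These 15 were called on the same arrays, so that their direction within slides is not separate support. With slide as a block in the fit, 16 genes fell.

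The breeds differed too. Between LW and Creole, 13 of the 42 genes (31.0%) were lower in LW and none was higher, against 8.54% lower and 6.56% higher among all named genes. The difference was below 0 for 39 genes, with a median of −0.20. All 3 genes of complex II were lower in LW (median −0.23), as were 4 of 9 in complex III (−0.39), 3 of 14 in complex IV (−0.16) and 3 of 16 in complex V (−0.14). At the probe level, 59 of 144 probes were lower, against 7.43% of all tested probes. Without replicate 5 of Creole HS the number of genes was 23 rather than 13, and it held all 13. With slide as a block it was 11, and without a filter on dim probes 10, all of them among the 13. The comparisons of temperature and of breed are read from the same 26 arrays, so that they are not independent.

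The smallest p-value was that of ATP5D. Its level was 12.42 to 12.99 in Creole (median 12.87, n = 8), 12.47 to 13.03 in F1 (median 12.77, n = 9) and 12.24 to 12.67 in LW (median 12.34, n = 9). The difference between LW and Creole was −0.38 (SE 0.0692, limma adjusted p = 0.00126), and F1 lay near Creole. ATP5C1, with medians of 14.88, 14.68 and 14.59 in Creole, F1 and LW, was lower in LW by a log2 difference of −0.46 (SE 0.0935, limma adjusted p = 0.00258). SDHB had medians of 14.01, 14.01 and 13.74 (difference −0.22, SE 0.0553, limma adjusted p = 0.00937) and SDHA of 16.80, 16.70 and 16.43 (−0.32, SE 0.0813, limma adjusted p = 0.0106). UQCR10, a small subunit of complex III that did not pass the threshold between HS and TN (−0.07, adjusted p = 0.641), had medians of 15.47, 15.28 and 15.02 and a difference of −0.42 (SE 0.106, limma adjusted p = 0.0108). The ranges of the breeds overlap for each of these genes. The others lower in LW were SDHD, CYC1, UQCRC2, UQCRQ, COX6A1, COX7C and ATP5A1, the last at an adjusted p of 0.04997.

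COX5A, a subunit of complex IV on its matrix side, had the largest of these differences, −0.90 (SE 0.176, 95% CI −1.26 to −0.53, limma adjusted p = 0.00194). Its level was 13.91 to 14.68 in Creole (median 14.38), 12.90 to 14.60 in F1 (median 13.86) and 12.82 to 13.85 in LW (median 13.52), so that no LW array reached the lowest Creole array. It rests on 1 probe. A probe named LOC100156967, which shares 44 bases with it, was lower in LW by a log2 difference of −1.84 (SE 0.496, adjusted p = 0.0146). The array also holds 2 probes of a contig, TC540519, described as similar to bovine COX5A. These differed by 0.27 (adjusted p = 0.0748) and 0.12 (adjusted p = 0.488). They were dim, with mean levels of 9.45 and 7.19, against 13.86 for the COX5A probe and 9.82 for that of LOC100156967. The probes described as COX5A therefore differ in sign, although the values of the contig did not pass the threshold. Whether a sequence difference between the breeds under the COX5A probe takes part was not tested.

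Over the 3 breeds together, 10 of the 42 genes differed (any breed difference, limma adjusted p under 0.05), against 11.6% of all named genes. They were SDHA, SDHB, SDHD, CYC1, UQCRC2, UQCRQ, UQCR10, COX5A, ATP5C1 and ATP5D. With slide as a block the number was 6, and without replicate 5 of Creole HS it was 17. Set against the mean of the 2 parental breeds, no member passed the threshold in F1 (0 of 42, against 0% of named genes and 0.00671% of probes), and 1 member had a p under 0.05 before adjustment. The 3 smallest p-values were those of UQCRC2 (difference 0.36, adjusted p = 0.286), UQCR10 (0.18, adjusted p = 0.593) and ATP5D (0.11, adjusted p = 0.613). The value was above 0 for 31 of the 42 genes.

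The change with HS was also read within each breed. No member passed the threshold in Creole (0 of 42, against 0.0727% of named genes) or in F1 (0 of 42, against 0.416%), where 7 genes each had a p under 0.05 before adjustment. In LW 3 of 42 genes fell, 7.14%, against 0.904% of named genes lower, and 18 had a p under 0.05 before adjustment. Over the 42 genes the median change was −0.20 for Creole, −0.08 for F1 and −0.24 for LW. ATP5J was at 13.47, 13.53, 13.67 and 13.47 on the 4 LW TN arrays and at 12.75, 12.96, 13.06, 13.07 and 13.21 on the 5 LW HS arrays, so that the groups did not overlap. Its change in LW was −0.52 (limma adjusted p = 0.0147). COX7B in LW was at 14.33, 14.51, 14.53 and 14.26 in TN and at 14.07, 14.01, 13.96, 14.08 and 14.10 in HS (change −0.36, limma adjusted p = 0.0323). SDHB in LW was at 13.85, 14.09, 14.12 and 13.86 in TN and at 13.69, 13.58, 13.69, 13.67 and 13.74 in HS (change −0.31, limma adjusted p = 0.0403). These groups did not overlap either. The count of 3 was 0 with slide as a block or without LW TN replicate 2 or 3, 1 without LW HS replicate 2, 3 or 4, 6 with processed signals scaled to the 75th percentile, 7 with array weights and 8 without replicate 5 of Creole HS.

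A difference between the breeds in the response itself was tested by the interaction of breed and temperature. No member passed it (0 of 42, against 0% of named genes and 0.00224% of probes), and 1 had a p under 0.05 before adjustment. That gene was ATP5J, with changes of −0.14 in Creole, −0.05 in F1 and −0.52 in LW (limma adjusted p = 0.897). ATP5F1 and COX6C had the next smallest p-values. The calls in LW therefore do not show that the response of LW differed from that of the other breeds.

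Other genes of the pathway were read from lists. Among all named genes, 7.68% fell and 4.89% rose under HS. In LW minus Creole, 8.54% of them were lower and 6.56% higher. Of 35 genes named as complex I subunits, 9 fell and none rose under HS (median −0.13), and in LW 12 were lower and 1 was higher than in Creole. This list holds NDUFA4 (−0.25, adjusted p = 0.0151), whose protein is a subunit of complex IV although its name is that of a complex I gene. Of 18 genes listed for the assembly and regulation of complexes II to V, 3 fell under HS: COX15 (−0.31), needed to make the heme of complex IV, HIGD2A (−0.14), an assembly factor of complex IV and of supercomplexes, and ATPIF1 (−0.19), the inhibitor of the ATP synthase. The median of this list was −0.13, and 8 of its genes were lower in LW than in Creole. Of 13 TCA cycle genes, 5 fell and all 13 values were below 0 (median −0.27). They were CS, citrate synthase (−0.33, adjusted p = 0.000447), MDH2 (−0.50), DLD (−0.41), IDH3A (−0.29) and SUCLG1 (−0.27). CYCS, cytochrome c itself, changed by −0.25 (adjusted p = 0.403) and HCCS, which attaches its heme, by −0.11 (adjusted p = 0.471).

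Among 11 regulators of mitochondrial genes, 3 fell under HS, against 7.68% of all named genes. The median of this list was −0.02, and 4 of the 11 values were above 0. In LW minus Creole, 1 was higher and 2 were lower, against 6.56% and 8.54% of all named genes. GABPA, a transcription factor of many nuclear genes of the respiratory chain, changed by −0.20 (adjusted p = 0.0241), ESRRG, a nuclear receptor of oxidative metabolism, by −0.47 (adjusted p = 0.0477) and TFAM, which packs and transcribes mitochondrial DNA, by −0.13 (adjusted p = 0.0271). PPARGC1A, the coactivator of mitochondrial biogenesis, was at a change of −0.01 (adjusted p = 0.938). Between breeds its level was higher in LW than in Creole, by 0.58 (adjusted p = 0.00136), the direction opposite to that of the 13 members that differed. ESRRG (−0.66, adjusted p = 0.0224) and PPARA, a nuclear receptor of fatty acid oxidation (−0.38, adjusted p = 0.0141), were lower in LW.

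Markers of other cells were counted against the named genes, of which 7.68% fell and 4.89% rose under HS, and 8.54% were lower and 6.56% higher in LW than in Creole. Of 10 fibroblast and matrix genes, 6 rose under HS (median 0.33) and 4 were higher in LW than in Creole, all 10 being well above background on all 26 arrays. Their summed intensity was 355957 to 906609 on TN arrays and 595951 to 1079028 on HS arrays. Among 10 adipocyte genes 1 rose, ADIPOQ (0.16, adjusted p = 0.0384), and 1 fell, CIDEA (−0.43, adjusted p = 0.000234), with a median of −0.03. CIDEA was also the 1 of 4 brown adipocyte genes that fell. Between breeds CIDEA (−0.31, adjusted p = 0.0103) and LEP, which encodes leptin (−1.23, adjusted p = 0.0438), were lower in LW than in Creole, and the endothelial receptor gene KDR was higher (0.87, adjusted p = 0.00136). In red blood cells 1 of 5 genes fell, HBB (−0.85, adjusted p = 0.0110), and in endothelium 1 of 5, CDH5 (−0.23, adjusted p = 0.0254). None of 7 macrophage genes and none of 2 keratinocyte genes passed the threshold. The summed intensity of the 2 keratinocyte genes was uneven between arrays, 90 to 5278 on TN arrays and 87 to 16707 on HS arrays. The part of these cells in the differences of the members was not tested.

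Skeletal muscle, which is rich in respiratory complexes, was read from 12 markers. None passed the threshold in either comparison. All 12 values were above 0 under HS (median 0.56), the direction opposite to that of the members that fell. In LW minus Creole all 12 were below 0 (median −0.88), the same direction as the 13 members that differed, and COX8H was at −1.0 (adjusted p = 0.191). The summed intensity of these markers was 29114 to 138667 on TN arrays and 33333 to 448589 on HS arrays. COX8H was highest on replicate 3 of Creole HS (11.10), replicate 1 of LW HS (10.28), replicate 4 of Creole HS (9.77) and replicate 1 of Creole TN (9.73), which are also the 4 arrays with the highest muscle sums, in the same order (448589, 238284, 153228 and 138667). Below these the orders differed: replicate 3 of Creole TN was at rank 8 of the 26 arrays for COX8H and at rank 15 for the muscle sum. The lowest COX8H level, 6.11, was on replicate 4 of LW TN, which also had the lowest muscle sum. COX7A1, the other muscle isoform, showed no such order: on replicate 3 of Creole HS it was at 14.40, the lowest of the 15 HS arrays. The part of muscle RNA in the values of COX8H and in the breed differences of the members was not tested.

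**Figure D5:**
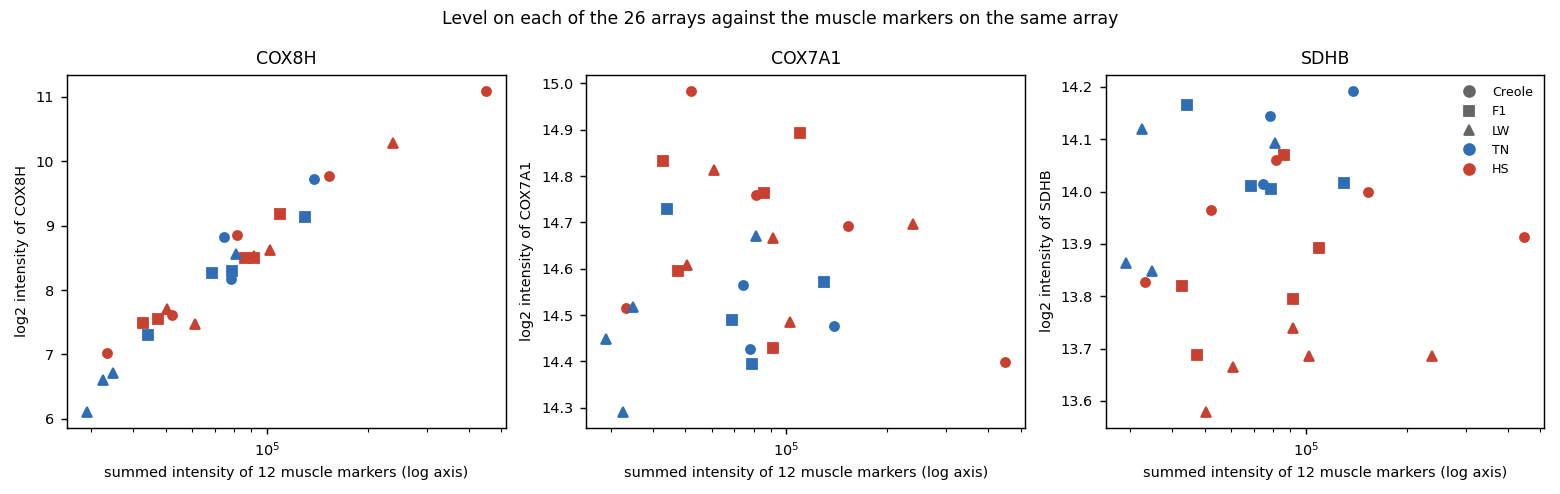
Log2 intensity of COX8H, COX7A1 and SDHB on each array against the summed intensity of 12 skeletal muscle markers on the same array (log axis); circles are Creole, squares F1, triangles LW, blue TN and red HS. COX8H goes from 6.11 on the array with the lowest sum (29114) to 11.10 on that with the highest (448589), while COX7A1 and SDHB show no such order.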

How the data were processed

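RNA from SCAT of 26 pigs was hybridised to 26 one-colour Agilent arrays. Per the labels and the methods of the study, the authors read the scanned images with Feature Extraction 10.10.1.1. The deposited scanner files hold, for each spot, median and mean pixel intensity, a background intensity and a processed intensity, none scaled between arrays, and flags for spots well above background, saturated or non-uniform. The deposited series matrix holds the authors' log2 values of quantile-normalized intensity for 44104 probes and served as an alternative. Every column of per-sample values was assigned to its sample.

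Here the median pixel intensity was used. Non-uniform spots were set aside, arrays were quantile-normalized, log2 was taken and duplicate spots were averaged. A probe was tested if 8 or more arrays had it well above background (44703 probes). Tests were fitted with limma 3.58.1 (lmFit, eBayes with an intensity trend) in R 4.3.3, with breed and temperature as terms, or with 6 group means for the changes within breeds and the interaction. P-values were adjusted by Benjamini-Hochberg over all tested probes (threshold 0.05). Pen, slaughter day and both parents, random effects in the authors' model, are not in the labels and were not fitted. Confidence intervals are at 95%. The number of arrays limits the precision. Scripts were tested on simulated data.

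Gene names are those of the array's design and can be old. A gene was read from its brightest tested probe. Genes with values by array are the 2 with the smallest p-values of each complex, up to 6 for LW minus Creole, 3 for F1 minus mid-parent and for the interaction, and the isoforms of complex IV and of the c subunit. Other genes past the threshold are given by complex. Members, lists and this rule were chosen with earlier results of these data known.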

Additional observations from a re-analysis of the deposited data

Results flagged for a closer look

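Within groups of 4 or 5 arrays, 9 of 130 tests over 26 items found an array far from the others of its group by Dixon's ratio of gap to range at the 95% level. By chance about 1 in 20 of these tests finds such an array, a share not far below that of 9 in 130. Of the 9, 3 concerned replicate 5 of Creole HS, which was the lowest of its group: its score was −0.33 for complex IV (the others 0.06 to 0.19) and −0.33 for all members (the others 0.06 to 0.18), and its SDHA level was 16.28 (the others 16.70 to 16.83). Replicate 2 of LW TN was the highest of its group for UQCRC1, at 15.16 (the others 14.88 to 14.92), and for COX6B1, at 14.72 (the others 14.34 to 14.37). Replicate 3 of LW HS was the lowest of its group for ATP5D, at 12.24 (the others 12.32 to 12.34), and for COX4I1, at 10.39 (the others 10.55 to 10.60). SDHB was at 14.16 on replicate 3 of F1 TN (the others 14.01 to 14.02), and COX7A2L at 12.44 on replicate 1 of LW HS (the others 12.08 to 12.18).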

How the results depend on the processing

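Littermates were housed in different pens, but no analysis paired by litter was possible because the labels do not give the litter of a pig. The labels give no replicate numbers either, and those used here are in accession order. The search for promoter motifs that was planned was not run, since no promoter sequences were used here. Under the alternatives the number of members lower under HS was 15 with normexp background correction, with the series matrix and without an intensity trend, 14 without a filter on dim probes, 17 with probes well above background on all arrays, 16 with slide as a block, 19 with array weights and 20 with the mean of all probes of a gene, but 25 with processed signals scaled to the 75th percentile (signal and scaling both differ) and 7 without the breed term. Leaving out 1 array at a time gave 10 to 21, the lowest without LW TN replicate 2 and the highest without F1 HS replicate 4, and without F1 HS replicate 3 or Creole HS replicate 3 COX7A1 was called higher. For LW minus Creole the range was 9 to 23, for any breed difference 8 to 17 (6 with slide as a block) and within LW 0 to 8 (6 with the scaled processed signals, 0 with slide as a block, 7 with array weights), while F1 minus mid-parent, the changes within Creole and F1 and the interaction stayed at 0 to 0. With 1 array at a time left out, the median change of complex II was −0.25 to −0.21, that of complex III −0.21 to −0.15, that of complex IV −0.15 to −0.10 and that of complex V −0.21 to −0.16. Within single slides the medians ranged more widely, from −0.34 (slide 3) to −0.084 (slide 5) in complex II, −0.47 (slide 3) to 0.11 (slide 5, with 0.012 within slide 4) in III, −0.38 (slide 3) to 0.012 (slide 5) in IV and −0.31 (slide 3) to −0.10 (slide 4) in V. For LW minus Creole, also with 1 array left out, the medians were −0.27 to −0.21 in complex II, −0.44 to −0.30 in III, −0.21 to −0.14 in IV and −0.17 to −0.11 in V. The scaled processed signals put the median of every complex below the ranges with 1 array left out in both comparisons (−0.29 and −0.30 over all members), as did the mean of all probes for complex II in both. UQCRC2 (0.11) and ATP5D (0.031) changed sign within slide 5, and ATP5G2 (−0.020) with the scaled processed signals. The cause of these differences was not tested. COX6A1 passed the threshold under 4 alternatives and COX7A2 under 3.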
